A study of Mus musculus with 495 samples.

Results

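The nuclear genes of oxidative phosphorylation were followed across single cells of the mouse embryonic pancreas. Members were taken by name: every gene of the count table whose symbol begins with Nduf followed by a, b, c, s or v, with Cox4 to Cox8, with Uqcr or with Atp5, plus Sdha, Sdhb, Sdhc, Sdhd, Cycs and Cyc1. This gave 92 of 23002 genes. By role they were 36 complex I subunits, 4 complex II subunits, 10 complex III subunits with cytochrome c, 20 complex IV subunits, 16 ATP synthase (complex V) subunits and 5 complex I assembly factors, with Ndufa4 and Ndufa4l2 placed with complex IV. Cox4nb, an older name of Emc8, which encodes a subunit of an endoplasmic reticulum complex, met the name pattern only and was kept in every sum.

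Oxidative phosphorylation passes electrons from NADH and succinate through complexes I to IV to oxygen, and ATP synthase uses the resulting proton gradient to make ATP. Most subunits come from the nucleus and the rest from mitochondrial DNA. In beta cells, ATP from this pathway couples glucose to insulin release, and acinar cells use it for the synthesis of digestive enzymes. Transcripts of mitochondrial DNA were not analysed here, since 0 genes of the table belong to it.

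The cells were sequenced with Smart-seq2, a plate method that reads whole transcripts and counts reads, PCR copies included. At embryonic stage E15.5 the plates carried the codes Neurog3 (EA01 with 73 and EA03 with 70 cells), endocrine (EA02 with 72 and EA05 with 85 cells) and duct (EA04, 66 cells), all of the genotype Neurog3-eGFP. At E17.5 the code was Neurog3-cre (EA06 with 57 and EA07 with 72 cells) and the genotype Neurog3-Cre, Rosa-mTmG, in which cells that have made Cre under Neurog3 control switch from a red to a green membrane reporter. In the table, the names of cells on those 2 plates hold the same knock-in word as the rest. The labels name no animal or litter, so each group is 1 sample, no test or p-value was computed, and plates are shown as plates, not as biological replicates.

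Each of the 495 cells was placed in 1 class by its own CPM (counts scaled to a cell total of 1000000), in this order. Acinar cells had at least 3 of 6 digestive enzyme genes, such as Cpa1, Ctrb1 and Cel, at 100 CPM. Hormone-dominated cells had at least 10000 CPM of insulin, glucagon, somatostatin, ghrelin and pancreatic polypeptide transcripts together. Neurog3-positive cells, named for the factor that starts endocrine differentiation, had at least 20 CPM of it, and Fev-positive cells, marked by a factor of later endocrine precursors, at least 20 CPM of Fev. This gave 48 acinar, 194 Neurog3-positive and 86 Fev-positive cells, 59 cells of no class and, as hormone-dominated, 35 cells of EA01 to EA04 and 73 of EA05 to EA07. The classes blend at their borders: 49 Neurog3-positive cells also had Fev at 20 CPM, and 16 hormone-dominated cells also had Neurog3 at 20 CPM. Acinar cells came almost entirely from EA04, which held 44 of the 48 and no Neurog3-positive cell. The 14 acinar markers summed to a median of 53257 CPM in acinar cells of EA01 to EA04, and the 3 listed endocrine classes had a median of 0. Cells held 200152 to 1182889 counts (median 533363).

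Most members were read widely. Over all cells 83 of the 92 stood at 20 CPM or more and 9 below, and 47 were detected in at least 90% of cells against 17 in under 50%. Divided by transcript length, the members led by the complex IV subunits Cox6b1 (1529 CPM per kb) and Cox4i1 (1519) and the complex I subunit Ndufa6 (1308). Cox8a (1115), Atp5h (1094) and Ndufa4 (1025) came next. The highest level per kb was 3.91 times the median of members at 20 CPM, and the 10 members with most counts held 30.8% of all member counts. Lengths are those of the shortest annotated protein-coding transcript, so levels per kb are approximate.

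Subunits of 1 complex did not stand at 1 level. The median level per kb was 542 CPM for ATP synthase, 442 for complex III with cytochrome c, 371 for complex I, 355 for complex IV, 233 for complex II and 29.5 for the assembly factors. Within complex I, the 7 nuclear core subunits, which carry the flavin and iron-sulphur centres, had a median of 152.8 CPM per kb, from 51.9 for Ndufs1 to 423 for Ndufv2. The 29 accessory subunits had a median of 412 CPM per kb, from 32.2 to 1308. Core transcripts are also longer, with a median of 1046 bases against 572, and the median core subunit was detected in 72.5% of cells against 90.7%, so the part of length in this gap was not tested. In complex II the catalytic subunit Sdha (63.9 CPM per kb) stood under Sdhb (296), Sdhc (246) and Sdhd (221). Ndufb4 and Ndufs5, at 33.8 and 32.2 CPM per kb, were read in 90.7% and 82.02% of cells in spite of their low levels. Near-identical copies could take their reads, which was not tested, so these values are uncertain.

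**Figure D1:**
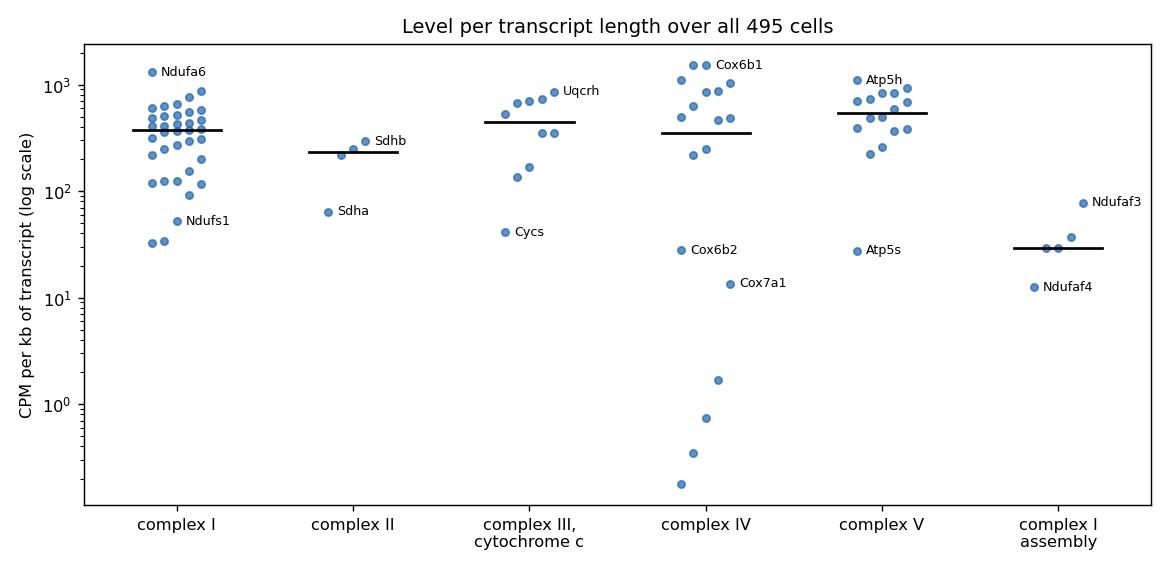
Level of each member over all 495 cells, in CPM per kb of the shortest protein-coding transcript, on a log axis. Each point is 1 gene and bars mark group medians, from 29.5 for assembly factors to 542 for ATP synthase. Cox8b and Cox8c, with 0 counts, and Cox4nb are not drawn.

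The tissue-restricted forms of complex IV subunits were nearly silent. Cox8b and Cox8c, known from muscle and testis, had 0 counts in all cells. Cox4i2, Cox6a2, Cox7b2 and Ndufa4l2 stood at or under 1.14 CPM, Cox7a1 at 5.31 and Cox6b2 at 10.8. Their common partners made up nearly all of each family, with Cox4i1 at 99.8% or more of the Cox4 level per kb in every class and batch. Cox7a1, the heart and muscle form, held 7.89% of the Cox7a family in acinar cells of EA01 to EA04 (18.6 CPM) and 0.153% to 2.87% in the other classes. Cox6a2, the other muscle form, was read in hormone-dominated cells alone: it reached 65.3 CPM on EA03 (22.2% of 9 cells), 7.44 on EA02 and 2.72 on EA07, and had 0 counts in every other cell. These values rest on 5 of 495 cells.

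The summed level of all members per cell followed the plate far more than the class. It ran from 8071 to 52431 CPM with a median of 24602 CPM. Plates accounted for 58.6% of the sum of squares of this sum, and classes within plates for 3.48%. Plate medians were 23422, 22972, 22819.5 and 23161 CPM on EA01 to EA04, 37537 on EA05, 33868.5 on EA06 and 20187 on EA07. EA05 and EA06 stood above the other plates and EA07 below them, and between the 2 plates of E17.5 the fold of EA06 over EA07 was 1.68.

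Within a plate, the endocrine classes lay close together. Neurog3-positive cells had medians of 22986, 22369 and 22609 CPM on EA01 to EA03 and 36230.2, 32229 and 20149 on EA05 to EA07. Fev-positive cells had 23670.4, 23108 and 24809 CPM, then 38097, 33026 and 20193. Hormone-dominated cells had 22009, 22619 and 20056 CPM, then 37943, 35302 and 21448. The log2 ratio of hormone-dominated to Neurog3-positive medians was -0.06, 0.016 and -0.17 on EA01 to EA03 and 0.07, 0.13 and 0.09 on EA05 to EA07. The Fev-positive ratio was 0.0032 to 0.13, and the ranges of cells overlapped on every plate.

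**Figure D2:**
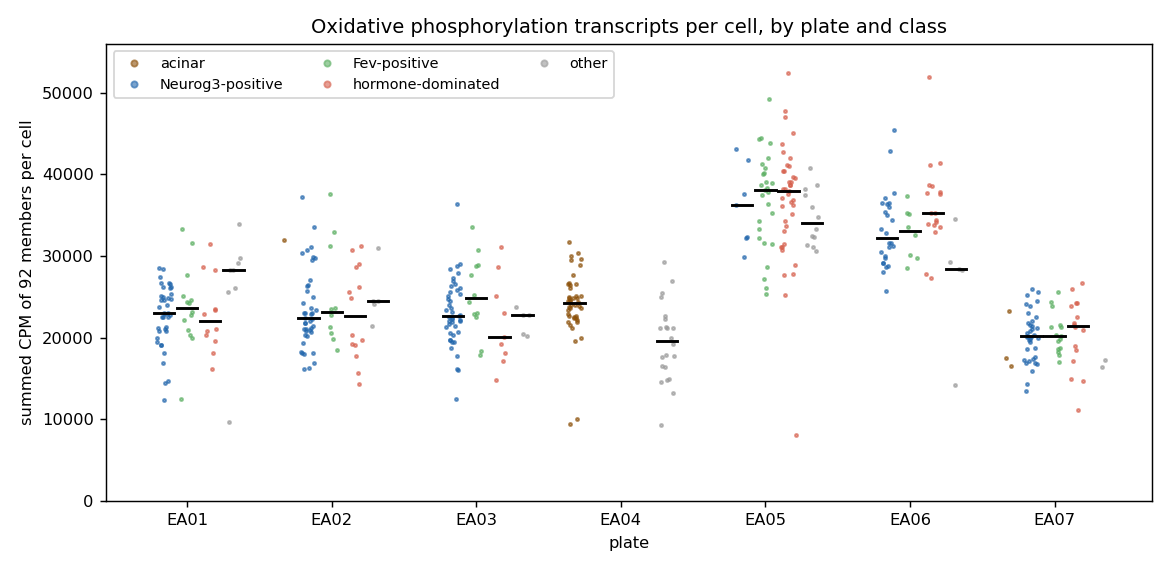
Summed CPM of the 92 members in each cell, by plate and class. Points are cells and bars are medians of classes with at least 5 cells. EA05 and EA06 stand above the other plates, and classes overlap within each plate.

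Plates were also pooled in 2 sets, EA01 to EA04 and EA05 to EA07, which differ in the ending of the cell names and in the share of 45S ribosomal RNA (Rn45s). Its plate medians were 20.6% to 23.7% of a cell's counts in the first set and 8.71% to 10.2% in the second. In the first set the medians were 22788 CPM in Neurog3-positive (39, 42 and 44 cells on EA01 to EA03), 23530.0 in Fev-positive (n = 36), 21114 in hormone-dominated (n = 35) and 24379 in acinar cells (n = 45). In the second they were 25613 (n = 69), 32375 (n = 50) and 35163 CPM (n = 73) in the 3 endocrine classes, log2 ratios of 0.34 and 0.46 over Neurog3-positive cells. Within plates the medians of those 2 ratios were 0.035 and 0.09. Of the 69 Neurog3-positive cells 36 came from the low plate EA07, and of the 73 hormone-dominated cells 39 from the high plate EA05.

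Relative to cytosolic ribosomal protein genes, members were higher in steps along the endocrine classes. Per 1000 counts of 86 such genes, the median cell held 418.5 member counts in Neurog3-positive, 639 in Fev-positive and 804 in hormone-dominated cells of EA01 to EA04, and 530.2, 653 and 822 in EA05 to EA07. Acinar cells held 419. The members' own sum hardly moved within plates. Of 82 measured ribosomal protein genes, 56 were lower in hormone-dominated cells on all 6 plates, against 7.6% of all genes. In Fev-positive cells 52 of 82 were lower, against 5.24%. More members were also detected per hormone-dominated cell: with each cell thinned to 150000 counts, the median was 72 of 92 in both sets, against 67 in Neurog3-positive cells, and 80 in acinar cells. Without thinning it was 74 and 73, 68 and 69, and 81. Genes of all kinds detected per cell, not thinned, had medians of 3236 in hormone-dominated, 2417 in Neurog3-positive and 4484 in acinar cells of EA01 to EA04, and of 3108 and 3154 in the first 2 classes in EA05 to EA07. Whether the members' counts differ beyond this was not tested.

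Hormone-dominated cells were then compared with Neurog3-positive cells of the same plate, gene by gene, on the 6 plates that hold both. A small set of members stood higher on every plate, led by Ndufa1, Ndufv3, Atp5g1, Uqcr11 and Ndufb10. Of 83 measured members 17 were higher on all 6 plates, against 6.05% of all measured genes, and 5 were lower, against 7.6%. Among genes at 100 CPM or more, 17 of 75 members were higher, against 11.2%, and 5 of 75 lower, against 362 of 2335 genes. The median log2 ratio of members was 0.06, against -0.12 for all genes, so most members differed little. EA05, which held only 7 Neurog3-positive cells, went the other way, with members at 0.12 and all genes at 0.51. On each other plate the median of members was above that of all genes. A gene is measured at 20 CPM in either class, and ratios are log2 values with 5 CPM added to each side, which understates changes of low genes. With DESeq2 size factors, 21 of 84 members were higher, against 7.46% of all genes, and 1 lower, against 5.96%. With TMM factors, 19 of 84 were higher, against 6.94%, and 3 lower, against 6.33%.

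Ndufa1, an X-linked accessory subunit needed for complex I assembly (chromosome X, 37187588 to 37191163, GRCm38), had the highest median ratio. Neurog3-positive cells held 75.4, 102.95 and 97.7 CPM on EA01 to EA03 and 208, 124.6 and 72.03 on EA05 to EA07. Hormone-dominated cells held 241, 262 and 277 CPM, then 352, 207 and 188. On EA01 the counting intervals were 71.7 to 79.3 and 228 to 255 CPM. They take PCR copies as separate counts and leave out the spread between cells, so they are too narrow. The log2 ratio was 0.71 to 1.61 (median 1.32), and the hormone-dominated value was the higher on each plate. Ndufa1 was detected in 88.9% to 100% of hormone-dominated cells and 71.4% to 91.7% of Neurog3-positive cells. Fev-positive cells lay between the other classes on 5 plates and lowest on EA07 (51.4 CPM).

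Ndufv3 encodes an accessory subunit of the NADH-oxidising arm of complex I (chromosome 17, 31520115 to 31531331). Neurog3-positive cells held 91.4, 90.2 and 54.8 CPM on EA01 to EA03 and 182, 167 and 124.5 on EA05 to EA07. Hormone-dominated cells held 185, 328 and 224 CPM, then 432, 297 and 262.5. Its log2 ratio was 0.81 to 1.94 (median 1.13), and it was detected in 83.3% to 100% of hormone-dominated cells against 57.1% to 77.8% of Neurog3-positive cells. Ndufv3 was also the member with the highest median ratio in Fev-positive cells, as given with those cells.

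Atp5g1 is 1 of 3 genes, with Atp5g2 and Atp5g3, whose different precursors yield the same mature c subunit of the ATP synthase ring (chromosome 11, 96068852 to 96075670). Neurog3-positive cells held 246, 279.7 and 214 CPM of Atp5g1 on EA01 to EA03 and 484, 619 and 221.5 on EA05 to EA07. Hormone-dominated cells held 541, 536 and 485 CPM, then 1144, 781 and 399.7. Its log2 ratio was 0.33 to 1.23 (median 1.02), smallest on EA06. Within the 3 genes, Atp5g1 held 39.1% to 58.7% of the level per kb in Neurog3-positive cells and 51.6% to 70.4% in hormone-dominated cells, higher in the latter on each of the 6 plates. Atp5g2 and Atp5g3 were not among the members higher on all plates.

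Uqcr11, a small accessory subunit of complex III (chromosome 10, 80402997 to 80406830), had 196, 199, 187, 301, 293 and 159 CPM in Neurog3-positive cells in the same plate order and 367, 329, 336, 703.5, 475 and 282 in hormone-dominated cells. Its log2 ratio was 0.69 to 1.21 (median 0.82), the narrowest range of the leading members. Ndufb10, an accessory subunit of the membrane arm of complex I (chromosome 17, 24722060 to 24724478), had 142.3, 115.9, 194, 286, 197 and 105.5 CPM against 229.5, 251, 222, 339, 444 and 168, a log2 ratio of 0.19 to 1.15 (median 0.66). These 5 were the members higher on all plates with a median over 1.5-fold, 5 of 83 against 5.42% of all genes, which is a share near the background.

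The other 12 members higher on all plates had smaller medians. In complex I they were Ndufc1 (0.40), Ndufb8 (0.40), Ndufs3 (0.29), Ndufa13 (0.26), Ndufa3 (0.26), Ndufa12 (0.26) and Ndufa11 (0.11). Thus 10 of 35 measured complex I subunits were higher and 0 lower, against 6.05% and 7.6% of all genes. Complex III added Uqcrq (0.33) and Uqcrb (0.32), and complex IV added Cox8a (0.40). ATP synthase added Atp5e (0.58), the epsilon subunit, and Atp5j2 (0.37), for 3 of 16 higher and 0 lower, against the same shares of all genes. Of 4 complex II subunits and 5 assembly factors, 0 were in the same direction on all plates. All 17 were still higher on all plates with TMM or DESeq2 scaling, and 15 with Rn45s taken out of the total, which lost Ndufa12 and Ndufs3. Calling Neurog3 before the hormones, which moves the cells with both markers, kept 9 of the 17, and setting the hormone threshold at 1000 CPM also kept 9. Ndufa1, Ndufv3, Atp5g1, Uqcr11 and Ndufb10 were kept in both cases.

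The lower members, a smaller share than among all genes (7.6%), were Cox7a2l, Cox5a, Cox7c and Cox4i1, which are 4 of 12 measured complex IV subunits, and Uqcr10 of complex III. Cox7a2l, which helps to join complexes III and IV into supercomplexes (chromosome 17, 83501918 to 83517330), had 316, 204, 265, 495, 372.5 and 238 CPM in Neurog3-positive cells on EA01, EA02, EA03, EA05, EA06 and EA07. Hormone-dominated cells held 127.2, 171, 128.4, 127.9, 220.3 and 112.4 CPM, and its log2 ratio was -1.91 to -0.25 (median -1.03). It held 23.4% to 39.6% of the Cox7a family per kb in Neurog3-positive cells and 10.5% to 25.01% in hormone-dominated cells, lower in the latter on each plate. Cox7a2l was the 1 lower member with a median over 1.5-fold (6.57% of all genes). Cox5a had a median of -0.46, Cox7c of -0.33, Uqcr10 of -0.31 and Cox4i1 of -0.25, and Cox4i1 and Cox5a were no longer lower on all plates with TMM, while DESeq2 size factors kept Cox7a2l alone.

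**Figure D3:**
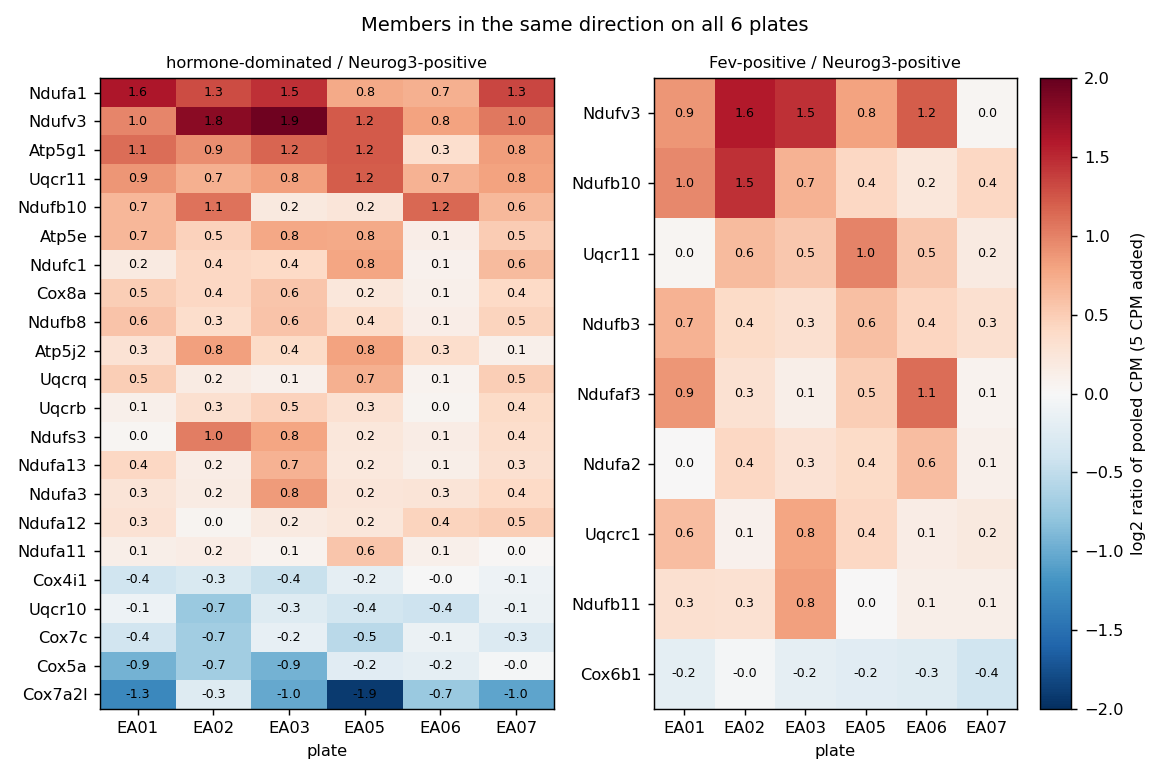
Log2 ratio of pooled CPM (5 CPM added) in hormone-dominated (left) and Fev-positive cells (right) over Neurog3-positive cells of the same plate. Shown are the 17 and 8 members higher, and the 5 and 1 lower, on all 6 plates. Both panels use the same Neurog3-positive cells, so they are not independent.

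Promoters were read for the members that led the endocrine comparisons, since these moved together on 6 plates. The RefSeq promoter table (GRCm38.p6) held 72 of the 92 members. NRF1, a regulator of respiratory genes, has the motif GCGCA, any base, GCGC, which was found in the 250 bases before the start in 14 of 72 members (19.4%), against 4.23% of 27025 genes, on either strand. The core motif of ETS factors such as GABP, CCGGAA, was found in 21 of 72 (29.2%), against 13.6%. Atp5h, Cox6a1 and Sdhd held both (1.09% of all genes), the ETS match of Cox6a1 lying in bases of its window that are not printed. Among the leading members, Ndufv3 and Uqcr11 held the ETS motif, and Atp5g1 and Ndufb10 held neither in the bases printed. Cox6a1, printed for the NRF1 motif, was not among the members in the same direction on all plates, and Ndufa1 is left out because its window lies in an exon of a neighbour. A match describes letters only, not binding. The bases of each window outside protein-coding exons follow, 5′ to 3′ on the gene's strand, with NRF1 and ETS matches in capitals:
Ndufv3, chr17:31519981-31520114, plus strand: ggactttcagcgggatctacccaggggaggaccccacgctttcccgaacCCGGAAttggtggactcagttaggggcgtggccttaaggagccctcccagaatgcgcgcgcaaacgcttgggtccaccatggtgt
Atp5g1, chr11:96075671-96075881, minus strand: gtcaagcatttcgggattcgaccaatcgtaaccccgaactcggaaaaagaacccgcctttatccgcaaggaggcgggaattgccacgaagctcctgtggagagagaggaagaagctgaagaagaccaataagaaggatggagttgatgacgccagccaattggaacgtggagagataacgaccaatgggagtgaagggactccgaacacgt
Uqcr11, chr10:80406831-80407071, minus strand: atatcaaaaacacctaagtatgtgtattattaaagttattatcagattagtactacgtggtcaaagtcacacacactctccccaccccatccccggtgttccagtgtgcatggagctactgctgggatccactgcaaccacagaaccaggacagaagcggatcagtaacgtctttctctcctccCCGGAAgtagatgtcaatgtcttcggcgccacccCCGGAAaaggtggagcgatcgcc
Ndufb10, chr17:24724479-24724673, minus strand: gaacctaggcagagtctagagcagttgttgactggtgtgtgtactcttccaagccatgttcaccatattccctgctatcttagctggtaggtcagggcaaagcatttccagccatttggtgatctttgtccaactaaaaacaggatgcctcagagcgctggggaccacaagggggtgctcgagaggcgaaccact
Cox6a1, chr5:115348982-115349208, minus strand: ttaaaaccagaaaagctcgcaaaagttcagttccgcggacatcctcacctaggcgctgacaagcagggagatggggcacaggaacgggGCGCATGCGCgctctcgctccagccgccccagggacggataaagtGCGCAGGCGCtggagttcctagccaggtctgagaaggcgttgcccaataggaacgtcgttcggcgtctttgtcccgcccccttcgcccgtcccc

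Fev-positive cells differed less from Neurog3-positive cells. Of 83 members 8 were higher on all 6 plates, against 3.77% of all genes, and 1 was lower, against 5.24%. Among genes at 100 CPM or more, 8 of 75 members were higher, against 7.3%, and 1 of 75 lower, against 9.96%. The median of members was 0.11, against -0.02 for all genes. On EA05, with 7 Neurog3-positive cells, members stood at 0.15 and all genes at 0.46, and on each other plate members stood above all genes. EA06 held only 8 Fev-positive cells. With TMM factors 3 members were higher on all plates, against 2.99% of all genes, and 4 lower, against 6.17%. With DESeq2 size factors 8 were higher, against 3.82%, and 1 lower, against 5.13%. Of those 8, 7 were also higher with CPM. The direction of the small ratios thus rests on the scaling, and TMM moved it more than DESeq2.

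Ndufv3 led in Fev-positive cells, with 172, 281.5 and 161 CPM on EA01 to EA03 and 321, 392.5 and 127.9 on EA05 to EA07. Its log2 ratio was 0.037 to 1.59 (median 1.04), near 0 on EA07 and 0.80 or more on the other plates. It was the 1 member higher on all plates with a median over 1.5-fold (3.05% of all genes), and 0 members were lower by as much (4.11%). Ndufb10 was at 282, 327, 318, 383, 230.5 and 142.5 CPM (0.22 to 1.46, median 0.56), and Uqcr11 at 202, 313, 273, 602, 428 and 181 (0.04 to 0.99, median 0.54). The others were Ndufb3 (0.41), the assembly factor Ndufaf3 (0.40), Ndufa2 (0.34), the core complex III subunit Uqcrc1 (0.30) and Ndufb11 (0.21), and Cox6b1 was lower (-0.21). With TMM factors, Ndufv3, Ndufb10 and Ndufb3 were still higher on all plates, and Ndufa2, Ndufaf3, Ndufb11, Uqcr11 and Uqcrc1 were not. With Neurog3 called before the hormones, the leading 3, Ndufv3, Ndufb10 and Uqcr11, were no longer higher on all plates, and the other 5 were. The Fev-positive and hormone-dominated comparisons share the Neurog3-positive cells.

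Ratios were also taken over pooled plates. In EA05 to EA07, 35 of 84 members were over 1.5-fold higher in hormone-dominated cells, against 18.7% of genes, and 7 lower, against 30.7%. This pool joins EA05 (E15.5, Neurog3-eGFP) with EA06 and EA07 (E17.5, Neurog3-Cre, Rosa-mTmG). Of its 69 Neurog3-positive cells 36 came from EA07, and of its 73 hormone-dominated cells 39 from EA05. Class is therefore mixed with plate, stage and genotype in its pooled ratios. On its own, EA05 had 18 of 84 higher (46.7% of genes) and 12 lower (32.8%), EA06 had 14 of 83 (33.1%) and 8 (34%), and EA07 had 10 of 82 (21.7%) and 4 (32.1%). In EA01 to EA04, 9 of 83 were higher (27.3%) and 5 lower (32.5%), or 15 and 4 with DESeq2 size factors. For Fev-positive cells the counts were 8 of 83 higher (31.4%) and 3 lower (24.7%) in the first set, with 8 and 5 under TMM, and 17 of 83 (22%) and 2 (23.6%) in the second. With CPM, the share of members past 1.5-fold was under that of all genes in these counts. The exception was the higher members of the pooled hormone-dominated comparison in EA05 to EA07. For the counts with TMM or DESeq2 size factors, the share of all genes was not computed. The assembly factor Ndufaf4 had a pooled Fev-positive log2 ratio of 0.97 in both sets, yet was at -0.29 on EA01. Ndufs8, a core subunit of complex I, was at 0.86 in the first set, with 0.69, 1.82 and 0.31 on EA01 to EA03, but at 0.18, -1.72 and -0.30 on EA05 to EA07.

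Acinar cells were compared with Neurog3-positive cells of EA01 to EA03 and, on their own plate, with the 22 unclassed cells of EA04. The 40 unclassed cells of EA01 to EA04, which include these 22, were of mixed kinds. Their pooled marker sums were 4917 CPM for duct, 3692 for mesenchyme, 273 for mesothelium and 181 for endothelium. Acinar cells had 3590, 43.8, 0 and 0.051 CPM. The second comparison thus shares the plate but sets acinar cells against a mixture. Their summed level was close to that of Neurog3-positive cells (24379 against 22788 CPM, log2 ratio 0.10), and on EA04 the median was 24210.0 CPM in acinar and 19554 in unclassed cells. Of 83 members 7 were over 1.5-fold higher than in Neurog3-positive cells, against 25.9% of genes, and 11 lower, against 38.2%. Against the unclassed cells 13 of 82 were higher (21.4%) and 5 lower (39.6%). For the first comparison class and plate cannot be told apart. Its split also moves with the scaling: the median of all genes was -0.24 with CPM, -0.046 with TMM and 0.24 with DESeq2 size factors, and the members higher and lower were 16 and 7, and 30 and 4, with the latter 2. The share of all genes past 1.5-fold was not computed with those 2.

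The members that led in acinar cells came from complexes II, III and V. Atp5g1 stood at 603 CPM against 246, a log2 ratio of 1.28 (1.1 to 1.47 against each of EA01 to EA03, and 0.67 against unclassed EA04 cells). It held 69.9% of the 3 c-subunit genes per kb in acinar cells of EA04 and 61.6% in unclassed cells there. Cyc1, the cytochrome subunit of complex III that hands electrons to cytochrome c (chromosome 15, 76343523 to 76346260), stood at 509.7 CPM against 245 (1.04) and against 96.8 CPM in unclassed EA04 cells (2.33). Atp5o was at 639 against 335 CPM (0.92), Uqcrc1 at 861 against 455 (0.91), and Atp5b, the catalytic beta subunit of ATP synthase, at 2022 against 1237 (0.71). Sdha was at 219 against 125.6 CPM (0.78), but its ratio ranged from 0.25 to 1.47 over the 3 reference plates. Against the unclassed cells of EA04 these 6 ratios were all above 0, but those of Atp5o (0.56), Uqcrc1 (0.54) and Atp5b (0.42) were under 1.5-fold.

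Among the lower members, Ndufaf3, an assembly factor of complex I (chromosome 9, 108565537 to 108567434), stood at 15.2 CPM against 106.3 (-2.46) and against 29.6 CPM in unclassed EA04 cells (-1.29). Atp5l was at 56.7 against 167 CPM (-1.48), Cox7a2l at 99.9 against 263 (-1.35) and Ndufs4, a complex I accessory subunit, at 131.6 against 264 (-0.98). Their ratios to unclassed EA04 cells were smaller, at -0.39, -0.31 and -0.56. Atp5s (-1.28) and Ndufaf1 (-0.92) were also lower, and both were low genes. By complex, the medians were 0.37 for complex II and 0.29 for complex III, with 1 of 4 and 2 of 10 members over 1.5-fold higher and 0 lower, counts close to the 25.9% of all genes. Against unclassed EA04 cells the medians were 0.49 and 0.52, with 2 of 4 and 3 of 10 higher, beside 21.4% of all genes.

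**Figure D4:**
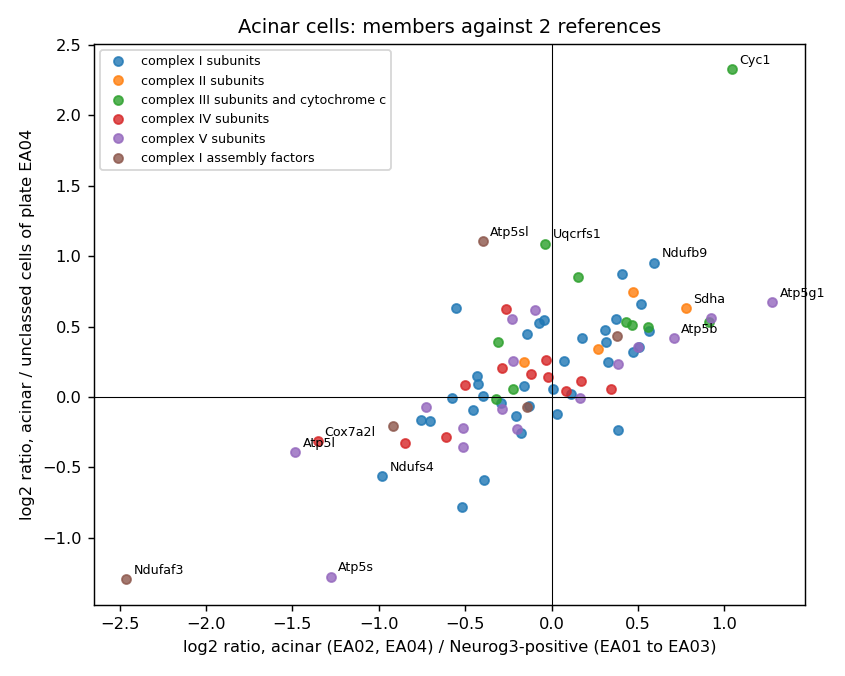
Log2 ratio of each measured member in acinar cells over Neurog3-positive cells (x axis) and over the unclassed cells of EA04 (y axis), with 5 CPM added. Points are genes, coloured by complex. Cyc1 and Atp5g1 lie at the upper right and Ndufaf3 and Atp5s at the lower left. Both axes use the acinar cells, so they share error, and Cox4nb is not drawn.

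Other genes of energy metabolism were read beside the members. Of 18 citric acid cycle and pyruvate dehydrogenase genes, 10 were over 1.5-fold higher and 2 lower in acinar than in Neurog3-positive cells (median 0.70, against -0.24 for all genes), among them Suclg2 at 129.6 against 14.6 CPM, Cs, the citrate synthase gene, at 319.9 against 137.98, and Idh2 at 1025 against 469. Of 14 glycolysis genes 10 were higher and 2 lower (median 0.79), with Ldha, which makes lactate, at 2043 against 57.3 CPM and the lactate transporter gene Slc16a1 at 34.9 against 1.89. Among all genes 25.9% were higher and 38.2% lower. Against unclassed EA04 cells the glycolysis list had 2 higher and 3 lower and the citric acid cycle list 5 and 1. There the shares of all genes were 21.4% and 39.6%. All 16 markers of G2 and M phase reached 20 CPM in both acinar and unclassed cells of EA01 to EA04, 7 of 16 did in Neurog3-positive cells there and 0 in hormone-dominated cells. The part of cell cycle differences was not tested.

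Across the endocrine classes few genes of these lists were in the same direction on all plates, as for genes in general (6.05% higher and 7.6% lower in hormone-dominated cells, 3.77% and 5.24% in Fev-positive cells). Hormone-dominated cells had 2 of 12 glycolysis genes higher on all 6 plates, Gapdh (median 0.38) and Pgam1 (0.56), 1 of 11 carrier and porin genes, the ADP/ATP carrier Slc25a4 (0.30), and 0 of 18 citric acid cycle and 0 of 8 biogenesis genes. Fev-positive cells had 3 of 11 carriers higher: the ADP/ATP carriers Slc25a5 (0.88) and Slc25a4 (0.47) and the pyruvate carrier gene Brp44 (0.29), with 1 of 18 citric acid cycle genes, Suclg1 (0.41). Slc25a5 rose from a plate mean of 1762 CPM in Neurog3-positive to 3178 in Fev-positive cells and was at 1774 in hormone-dominated cells. Of 76 mitochondrial ribosomal protein genes 3 were higher and 5 lower on all plates in hormone-dominated cells, and 1 and 2 in Fev-positive cells.

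The summed level was also compared by the hormone that led a cell. On EA05 the median was 38888 CPM in 26 insulin cells (30706 to 52431) and 34666 in 8 glucagon cells (8071 to 42030), groups that overlap. On EA07 it was 22856 CPM in 6 insulin cells (20933 to 26742) and 17152.5 in 5 somatostatin cells (11126 to 18927), groups that do not overlap. On EA06 only ghrelin cells numbered at least 5, with a median of 38202 CPM (n = 8). In EA01 to EA04 the medians were 20585 (n = 20), 20773 (n = 7) and 21879 CPM (n = 6) in insulin, glucagon and somatostatin cells. Their ranges overlapped, and the order on EA07 was not seen there. Within hormone-dominated cells the members' sum fell as the hormone share of counts grew, with Spearman rho of -0.81 to -0.07 on the 5 plates with at least 10 cells. It went with the mitochondrial ribosomal protein sum at 0.30 to 0.70. These are descriptions across cells, and CPM values share each cell's total, so that a large hormone share lowers every other value.

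The gap between the 2 plates of E17.5 was followed gene by gene, as these plates carry the same label. In Neurog3-positive cells 64 of 84 members were over 1.5-fold lower on EA07 than on EA06, against 28.2% of genes, and 7 were higher, against 41.8%. The median was -1.07, against 0.26 for all genes. All 12 measured complex IV subunits were lower. Cox4i1 fell from 1772 to 759 CPM and Atp5g1 from 619 to 221.5, while Atp5b, with a transcript of 1916 bases against 745 for Cox4i1, was at 947 on EA06 and 2523 on EA07. In hormone-dominated cells 62 of 83 were lower (33.2%) and 8 higher (39.3%), and in Fev-positive cells 54 of 84 (30.9%) and 10 (49.4%).

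The gap differed between transcript lengths. Members have a median length of 680 bases, against 1806 for all genes with a length. In Neurog3-positive cells the 51 members up to 800 bases had a median of -1.20 and the 970 other genes of that length -0.52. From 800 to 1500 bases the 20 members stood at -0.87 and other genes at -0.00023, and from 1500 to 2500 bases the 9 members stood at 0.48 and other genes at 0.68. The 4 members of 2500 to 4000 bases, at -0.43 against 0.69, did not follow this order. Over 4000 bases there was no measured member, and other genes stood at 0.069, back below those of 1500 to 4000 bases. EA07 also had more counts per cell (median 851992 against 551913) and more genes (3902.5 against 2295), and cytosolic ribosomal protein genes, which are short as well, had 71 of 81 lower there. Per 1000 ribosomal protein counts, the members' median was 660 on EA07 and 536 on EA06. The part of length, depth or library making in the difference between these plates was not tested, and the same holds for any difference between the days.

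**Figure D5:**
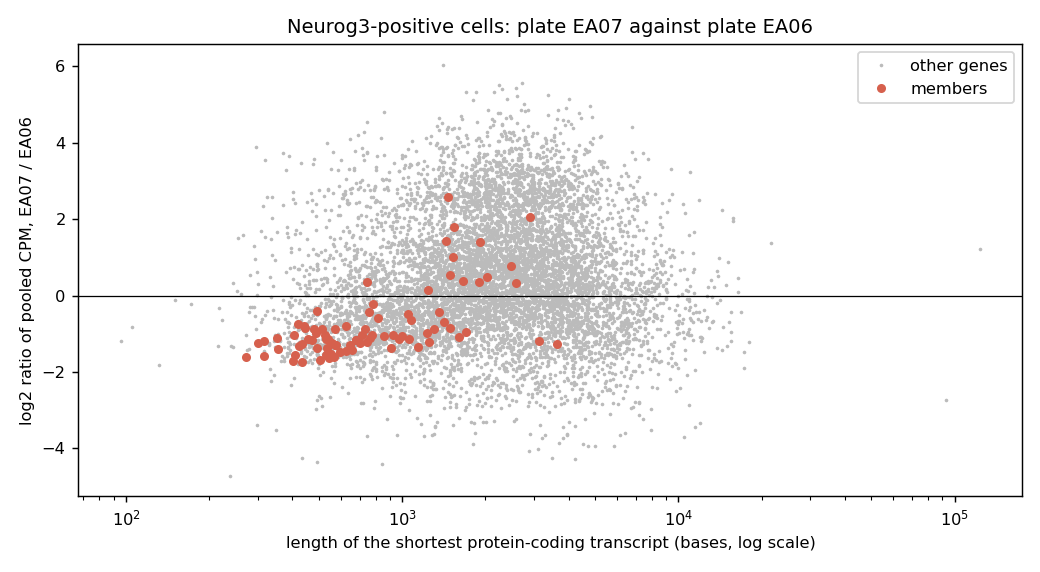
Log2 ratio of pooled CPM in Neurog3-positive cells, EA07 over EA06 (both E17.5), against the length of the shortest protein-coding transcript (log axis). Points are genes measured at 20 CPM on either plate, with members in red. Members up to 800 bases have a median of -1.20 and those of 1500 to 2500 bases 0.48.

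Some members share exon bases with another gene, so their reads may be divided or lost in counting: this held for 33 of the 92. Among the members described, these include Cox4i1 (with Cox4nb), Cox5a, Ndufaf3, Ndufa13, Ndufa3, Ndufa2, Ndufb8, Ndufb11, Ndufs3, Uqcrb, Atp5o and Atp5l. Ndufa1, Ndufv3, Atp5g1, Uqcr11, Ndufb10 and Cox7a2l share none.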

How the data were processed

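Single cells of embryonic mouse pancreas were measured with Smart-seq2. The deposited values are unnormalised read counts, 1 column for each cell. The submitters' processing notes name FastQC, STAR, HTSeq and mm10, and the labels give neither versions nor the strand setting nor sort gates. Columns were assigned to samples through the well and plate in their names, and 0 were left over.

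CPM was computed over each cell's total (200152 to 1182889 counts). Counts of a class were summed per plate or set of plates. Exact Poisson 95% intervals cover counting error only and take PCR copies as separate counts. Doublets were not called. A gene of the acinar class rule is not reported here. Log2 ratios used a pseudocount of 5 CPM, a gene was measured at 20 CPM in either class, and 1.5-fold was the size named. With 1 sample per group no test was run. Named members are the 6 with the largest pooled ratio per direction and those in the same direction on all 6 plates. The members, classes and lists were chosen with earlier results of these data known; kinases named Rps6k were taken out of the ribosomal list after values were seen. Gene positions, lengths and exons come from GENCODE M21 (GRCm38), to which 92 members matched, 2 through an older symbol. Alternatives were TMM factors (edgeR 4.0.16) and DESeq2 1.42.0 size factors on pooled counts, other totals, pseudocounts, filters and class thresholds, and each plate left out. Comparisons within plates were added after the data were seen. Python 3.11.15, pandas 2.3.3, scipy 1.17.1 and R 4.3.3 were used. Pooled ratios were also run on counts simulated from pooled proportions. That simulation had no spread between cells or plates, so it checks the calculation only.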

Additional observations from a re-analysis of the deposited data

How the results depend on the processing

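No paired analysis was possible because no result comes from a test, and the labels name no animal or litter. Classes were only set side by side within each plate, as a description.

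The log2 ratio of summed levels, acinar over Neurog3-positive, was 0.10 with CPM, 0.24 without Rn45s, acinar and hormone genes in the total, 0.0016 per ribosomal protein count, 0.26 with TMM, 0.52 with DESeq2 size factors, 0.069 with means and 0.31 against unclassed EA04 cells. The Fev-positive ratio in EA01 to EA04 (0.046) was 0.61 per ribosomal protein count and -0.041 with TMM. In EA05 to EA07 (0.34) it was 0.38 without Rn45s, 0.30 per ribosomal protein count, 0.23 with TMM, 0.14 with DESeq2, 0.25 pooled, 0.23 with means, 0.45 with Neurog3 and Fev at 5 CPM, -0.076 at 100 CPM, 0.41 with hormones at 1000 CPM, 0.38 at 50000 CPM and 0.035 within plates, and -0.15 (without EA05) to 0.61 (without EA06) with plates left out. The hormone-dominated ratio in EA01 to EA04 (-0.11) was 0.16 without Rn45s, acinar and hormone genes, 0.94 per ribosomal protein count, 0.10 with TMM, 0.20 with DESeq2, 0.038 pooled, 0.040 and -0.24 with hormones at 1000 and 50000 CPM and 0.15 without well rows D and H, so its sign depends on these choices. In EA05 to EA07 (0.46) it was 0.53 without Rn45s, acinar and hormone genes, 0.63 per ribosomal protein count, 0.53 with TMM, 0.38 with DESeq2, 0.37 pooled, 0.31 with means, 0.52 and 0.30 with Neurog3 and Fev at 5 and 100 CPM, 0.50 and 0.40 with hormones at 1000 and 50000 CPM, 0.090 within plates and 0.20 (without EA05 or EA07) to 0.72 (without EA06) with plates left out.

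Counts of members over 1.5-fold changed by over 1.5 times in these cases. At 2-fold, higher and lower were 2 and 4 (acinar), 2 and 1 (Fev-positive, first set), 0 and 1 (second set), 4 and 0 (hormone-dominated, first set) and 5 and 3 (second set). Acinar counts were 16 and 7 with TMM, 30 and 4 with DESeq2, and 16 higher without Rn45s, acinar and hormone genes. Fev-positive lower members were 5 with TMM and 3 to 5 with plates left out in the first set (5 without EA01 or EA03), and in the second 1 at a 50 CPM filter and 4 to 5 with plates left out; higher members there were 3 (without EA05) to 49 (without EA06). Hormone-dominated higher members were 15 with DESeq2 in the first set and 12 (without EA05) to 54 (without EA06) in the second, 13 without EA07, and lower members in the first set were 19 with hormones at 50000 CPM and at most 9 (without EA01).

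For members in the same direction on all plates, Fev-positive higher counts were 3 with TMM, 5 without Rn45s and 5 with Neurog3 called first, and lower counts were 4 with TMM and 1 to 4 with plates left out (4 without EA07, 3 without EA02 or EA03, 2 without EA05 or EA06). Hormone-dominated higher counts were 15 without Rn45s, 10 with Neurog3 first, and 11 with hormones at 1000 CPM, and lower counts 3 with TMM, 1 with DESeq2, 3 without Rn45s, acinar and hormone genes, 9 with Neurog3 first and 5 to 8 with plates left out (8 without EA01 or EA06). Members detected per cell were 81 (acinar), 68 (Neurog3-positive) and 74 (hormone-dominated) without thinning in EA01 to EA04, and 79 in acinar cells at 10 CPM. Scaling moved the median of all genes by over 0.1 in the other pooled comparisons as well: from 0.11 to -0.02 with TMM (Fev-positive, first set), from -0.01 to -0.11 with DESeq2 (second set), from -0.11 to 0.06 with DESeq2 (hormone-dominated, first set) and from -0.17 to -0.01 with TMM (second set). The cause of these changes was not tested. Of the values of named members within plates under these alternatives, 482 moved by less than the spread between plates and 5 by more. Hormones at 50000 CPM left too few cells on a plate for the count on all plates, and acinar cells cannot be compared without EA04.

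Depth limits low members: 9 stood under 20 CPM, and their ratios were not read. With 1 sample per group, spread between animals is unknown.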
